A study of Mus musculus with 12 samples.

Results

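Beta cell transcription factors are the DNA-binding proteins that switch on the insulin programme and hold beta cells in their mature state. The 10 genes described here are Pdx1, Mafa, Nkx6-1, Nkx2-2, Neurod1, Pax6, Isl1, Foxa2, Mnx1 and Rfx6. They were chosen by name, with earlier results of these data known. They are 10 of the 22141 genes to which the deposited transcript counts could be summed. All 10 passed the filter on low counts, with 488 to 39945 counts per library.

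The islets, the endocrine clusters of the pancreas, came from wild-type male mice 10 to 12 weeks old and were cultured ex vivo in lots of about 120. Messenger RNA was sequenced from 4 groups with 3 libraries each: palmitate with C3a, palmitate, vehicle with C3a, and vehicle. Palmitate is a saturated fatty acid used to load beta cells with lipid, and C3a is the peptide that is released when complement component C3 is cleaved. No transgene or deletion was present, doses and times are not in the labels, and they do not say whether a group's libraries came from separate animals, so a p-value here reflects only how far these libraries spread. An islet also holds alpha, delta, PP, endothelial and other cells, so in these bulk samples fewer cells of a type and less RNA per cell cannot be told apart.

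The factors act as a network in which members bind one another's control regions and those of the insulin genes. Pdx1, Nkx6-1, Nkx2-2 and Mnx1 are homeodomain proteins, Isl1 joins a homeodomain to LIM domains, and Pax6 carries a paired domain and a homeodomain. Mafa is a basic leucine zipper protein, Neurod1 is a basic helix-loop-helix protein that binds E-boxes, Foxa2 is a forkhead pioneer factor, and Rfx6 belongs to the RFX family. In the adult mouse islet Mafa, Nkx6-1 and Mnx1 are largely kept to beta cells and Pdx1 to beta and delta cells, whereas the other members are shared with further endocrine cell types.

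The upstream sequence of 4 members is shown because together they span the outcomes. Pdx1 had the largest average fall among the 10 under palmitate, and Mnx1 had the lowest level in CPM. Isl1 had groups that did not overlap in CPM, and Nkx2-2 did not pass the test. The sequences are from RefSeq (GRCm38.p6), on the coding strand 5′ to 3′, without bases that GENCODE M21 puts in an exon (138 for Pdx1, 53 for Nkx2-2 and 1 for Isl1). Capitals mark TAAT on either strand (ATTA on the strand shown), the core that homeodomains bind. The stretches are chr5:147269847-147269958 on the plus strand for Pdx1, and on the minus strand chr5:29478471-29478720 for Mnx1, chr13:116309690-116309938 for Isl1 and chr2:147186456-147186652 for Nkx2-2. The Nkx2-2 stretch is upstream of a RefSeq start only, and lies inside the span that GENCODE gives the gene (chr2:147177546-147194243).
Pdx1: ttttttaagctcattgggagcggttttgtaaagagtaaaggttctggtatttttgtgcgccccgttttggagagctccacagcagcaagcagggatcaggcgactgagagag
Mnx1: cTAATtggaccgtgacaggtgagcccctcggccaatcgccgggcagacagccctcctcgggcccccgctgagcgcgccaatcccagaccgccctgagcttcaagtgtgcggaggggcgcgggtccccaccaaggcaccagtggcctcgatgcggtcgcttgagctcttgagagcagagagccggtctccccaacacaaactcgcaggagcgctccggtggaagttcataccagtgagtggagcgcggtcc
Isl1: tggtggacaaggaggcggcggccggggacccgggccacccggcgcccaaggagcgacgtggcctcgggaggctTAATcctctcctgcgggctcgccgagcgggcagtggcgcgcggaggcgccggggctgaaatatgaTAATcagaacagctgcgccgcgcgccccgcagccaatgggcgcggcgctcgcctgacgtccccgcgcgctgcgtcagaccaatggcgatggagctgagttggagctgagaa
Nkx2-2: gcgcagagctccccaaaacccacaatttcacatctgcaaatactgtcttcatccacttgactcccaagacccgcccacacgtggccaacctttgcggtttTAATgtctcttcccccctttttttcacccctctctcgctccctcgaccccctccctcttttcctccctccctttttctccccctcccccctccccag
The Pdx1 stretch of 112 bases held no TAAT, the Mnx1 and Nkx2-2 stretches held 1 each and the Isl1 stretch held 2. RefSeq gave 12 windows of 250 upstream bases for 9 members, and none for Mafa. Of the 12, 8 held a TAAT, against 54.9% of 32807 mouse windows of that length. The windows of Pdx1, Nkx6-1 and Neurod1 held 0, as did the Foxa2 window at chr2:148045949-148046198. The E-box CANNTG was in 7 of the 12, against 66.2% of all windows, both strands searched. The full Pdx1 window held 3 E-boxes, and its printed stretch, without exon bases, held 0. The forkhead motif TGTTTAC was in 0 of 12, against 3.16% of all. The short motifs TGCTGA (part of the MAF site) and GTTGCC (part of the RFX site) were in 3 and 1 of the 12, against 16.1% and 10.4%. A match describes letters only, and its absence says nothing of the factor.

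Library totals ran from 22216420 to 26110989 counts in sequencing batch 1, which holds replicate 1 of every group, and from 35876350 to 50264695 in batch 2, which holds replicates 2 and 3. Levels are given as CPM, counts scaled to a fixed library total. Defining islet genes were abundant in all 12 libraries, with 82040 to 118100 CPM for Ins2, 30750 to 54010 CPM for Ins1 and 23850 to 38130 CPM for Gcg, the glucagon gene of alpha cells. The 12 acinar and duct markers summed to 2485 to 4761 CPM, so exocrine RNA was present in every library.

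Palmitate lowered most of the network, with and without C3a. A gene was called at an adjusted p under 0.05 (edgeR's quasi-likelihood test, Benjamini-Hochberg adjustment over 15794 genes). Without C3a, 7 of the 10 members fell and 0 rose, in a comparison that called 25.4% of all genes (12.0% lower and 13.4% higher). With C3a present in both groups, 8 of 10 fell and 0 rose, where 26.9% of all genes were called (13.1% lower and 13.8% higher). The average of both effects called 8 members lower, against 39.7% of all genes (19.4% lower and 20.3% higher). Because the members were chosen with earlier results of these data known, the shares of all genes are a description beside them and no test. The median log2 fold change of the members was -0.23 without C3a, -0.32 with C3a and -0.28 on average, while the medians over all genes tested were -0.02, 0.01 and -0.00. Among the 8 members called on average, the smallest change was in Foxa2, which fell by 11.5%, and the largest was in Pdx1, which fell by 30.4%.

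**Figure D1:**
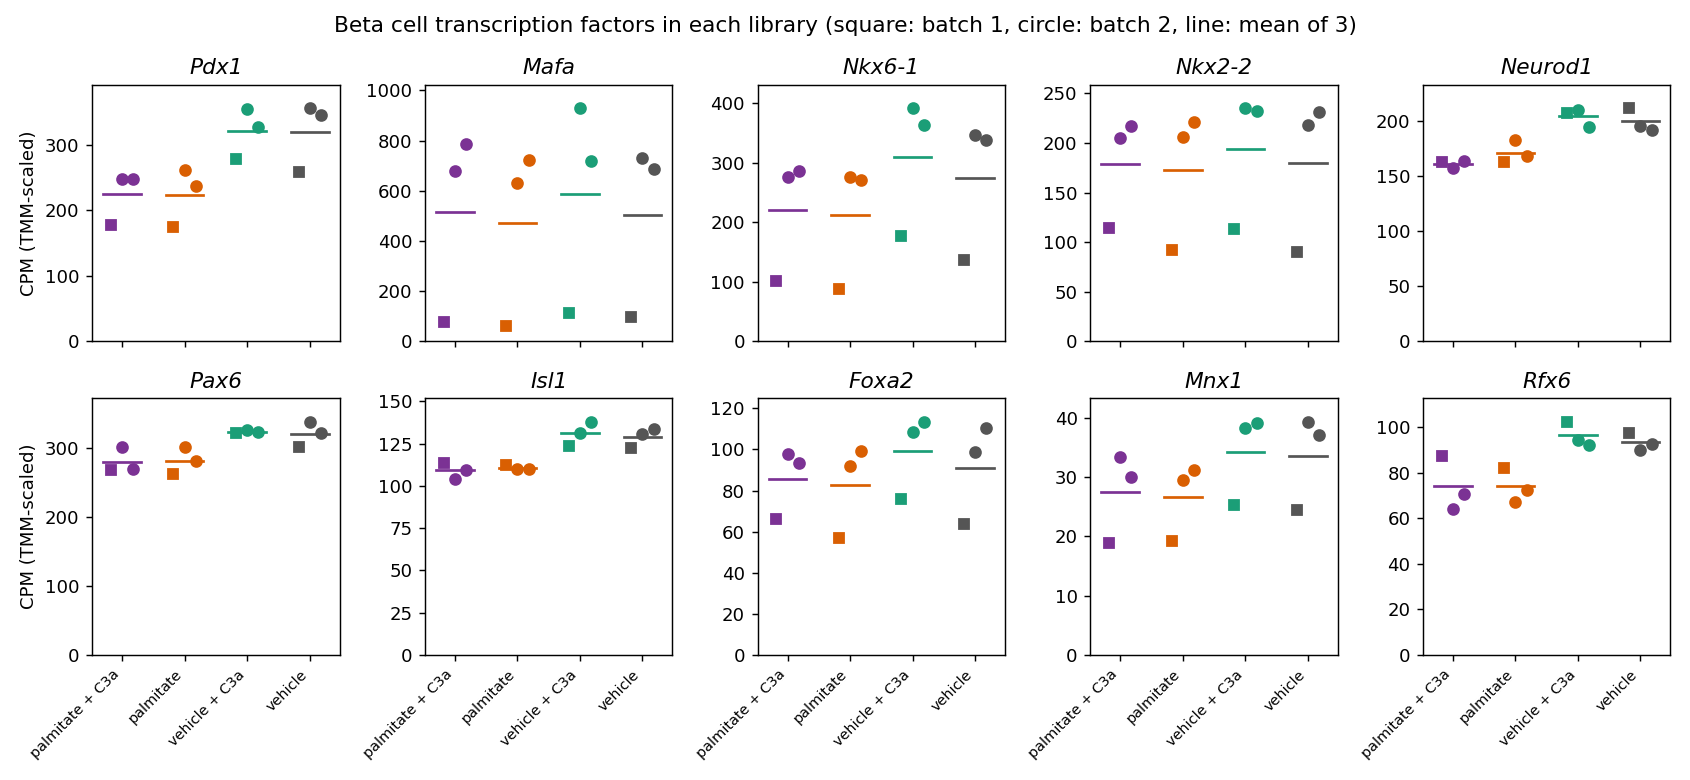
CPM (TMM-scaled, vertical axes from 0) of each of the 10 factors in the 12 libraries, by group; squares are batch 1, circles batch 2 and lines group means of 3. Pdx1, Nkx6-1, Neurod1, Pax6, Isl1, Mnx1 and Rfx6 lie lower in palmitate libraries than in vehicle libraries of the same batch, and the Mafa squares lie far below its circles.

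Pdx1, the master factor of pancreas formation and a direct activator of the insulin genes, showed the largest average change of the 10 (ENSMUSG00000029644.7, chr5:147269959-147275848, plus strand, GRCm38). It had 174, 262 and 236 CPM in palmitate replicates 1, 2 and 3, against 259, 356 and 346 CPM in vehicle. With C3a it had 177, 248 and 247 CPM in palmitate islets, against 279, 355 and 327 CPM in vehicle islets. Every palmitate library was below its same-numbered vehicle library, and with C3a the groups did not overlap at all; without C3a, vehicle replicate 1, in batch 1, lay just below palmitate replicate 2, in batch 2. Pdx1 fell by 0.52 on the log2 scale without C3a (standard error 0.06, 95% interval -0.65 to -0.39, adjusted p = 9.28e-05 in edgeR). With C3a it fell by 0.53 (standard error 0.06, adjusted p = 7.15e-05). Its p-value ranked 269 among 15794 genes in the comparison without C3a.

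Nkx6-1, a repressor of the alpha cell programme in beta cells, was next (ENSMUSG00000035187.10, chr5:101658139-101664996, minus strand). Palmitate islets had 88.3, 276 and 270.4 CPM and vehicle islets 137, 346 and 339 CPM. With C3a the values were 101, 276 and 286 CPM in palmitate and 176, 392 and 364 CPM in vehicle. The groups were apart within batch 2 and overlapped across batches, and the batch 1 pairs differed the same way. Nkx6-1 fell by 0.42 without C3a (standard error 0.09, edgeR adjusted p = 0.00517) and by 0.55 with C3a (standard error 0.09, adjusted p = 0.000961).

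Mnx1, a homeodomain factor needed in mice for the beta cell fate, had the lowest levels of the 10 (ENSMUSG00000001566.9, chr5:29473034-29478470, minus strand). It had 19.3, 29.6 and 31.1 CPM in palmitate and 24.5, 39.3 and 37.0 CPM in vehicle. The C3a-treated islets had 18.9, 33.3 and 29.99 CPM with palmitate and 25.3, 38.2 and 39.0 CPM with vehicle. All 6 same-numbered differences were negative, from -0.41 to -0.20 on the log2 scale. It fell by 0.33 in both comparisons (standard error 0.06 in each, edgeR adjusted p = 0.00121 without C3a and 0.00127 with C3a).

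Mafa, the activator of insulin transcription that marks mature beta cells, gave no call (ENSMUSG00000047591.5, chr15:75745490-75748228, minus strand). Its levels were 62.0, 629 and 724 CPM in palmitate and 96.8, 729 and 688 CPM in vehicle. With C3a they were 76.2, 680.4 and 787 CPM in palmitate and 115, 929 and 720.0 CPM in vehicle. Replicates 1 and 2 were lower under palmitate and replicate 3 was higher: the log2 differences were -0.64, -0.21 and 0.07 without C3a and -0.59, -0.45 and 0.13 with C3a. The fitted log2 fold change was -0.25 without C3a (95% interval -0.58 to 0.09, edgeR adjusted p = 0.268) and -0.31 with C3a (-0.64 to 0.03, adjusted p = 0.166). Averaged over both it was -0.28 (-0.51 to -0.04, adjusted p = 0.0621), so a fall as large as that of Rfx6 is inside every one of these intervals. Few alternative fits called Mafa: 0 of 20 without C3a, 1 of 20 with C3a and 3 of 19 on average. Over these fits the log2 fold changes ran from -0.36 to -0.06, from -0.44 to -0.17 and from -0.35 to -0.12. With C3a the call came without vehicle with C3a replicate 3 (-0.44, edgeR adjusted p = 0.0422). The average called it without palmitate replicate 3 (adjusted p = 0.031), without vehicle with C3a replicate 3 (0.0142) and with DESeq2 (0.0118). The libraries left out are of replicate 3, where Mafa was higher under palmitate.

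Rfx6, which in mice is needed for islet formation and later for insulin secretion, changed the most among the factors shared by several endocrine cell types (ENSMUSG00000019900.19, chr10:51677756-51730432, plus strand). It had 82.3, 67.2 and 72.6 CPM in palmitate and 97.5, 90.2 and 92.6 CPM in vehicle. With C3a the levels were 87.5, 64.1 and 70.8 CPM in palmitate and 102, 94.6 and 92.4 CPM in vehicle. In CPM the groups did not overlap in either comparison. In TPM, which divides counts by annotated length, palmitate with C3a replicate 1 (39.5) lay above vehicle with C3a replicate 3 (38.96). Rfx6 fell by 0.34 without C3a (standard error 0.06, edgeR adjusted p = 0.00235) and by 0.39 with C3a (standard error 0.06, adjusted p = 0.000946).

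Neurod1, an insulin gene activator that works with E-box partners, also had separate groups (ENSMUSG00000034701.9, chr2:79452521-79456751, minus strand). Palmitate islets had 163, 182 and 168 CPM, against 211, 195 and 192 CPM in vehicle islets. With C3a they had 162, 157 and 163 CPM, against 208, 209.9 and 195 CPM in vehicle with C3a. It fell by 0.22 without C3a (standard error 0.06, edgeR adjusted p = 0.0119) and by 0.34 with C3a (standard error 0.06, adjusted p = 0.00086). The call without C3a was lost when palmitate replicate 1 (adjusted p = 0.0742) or vehicle replicate 1 (0.0695) was left out, and among batch 2 libraries alone (0.186).

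Isl1, a LIM-homeodomain factor required for survival of endocrine cells, had separate groups as well (ENSMUSG00000042258.13, chr13:116298281-116309689, minus strand). It had 112, 110.3 and 110.2 CPM in palmitate and 123, 131 and 134 CPM in vehicle. With C3a it had 114, 104 and 109.5 CPM in palmitate and 124, 132 and 138 CPM in vehicle. In CPM no palmitate library reached a vehicle library in either comparison. In TPM, palmitate with C3a replicate 1 (94.5) was above vehicle with C3a replicates 1 (84.8) and 2 (92.96). Isl1 fell by 0.22 without C3a (standard error 0.05, edgeR adjusted p = 0.00906) and by 0.26 with C3a (standard error 0.05, adjusted p = 0.00296). Without vehicle replicate 3 the first of these missed the threshold (adjusted p = 0.0581).

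Pax6, which in adult beta cells keeps up genes of insulin production and secretion, fell least among the members called in both comparisons (ENSMUSG00000027168.21, chr2:105668900-105697364, plus strand). It had 262, 302 and 281 CPM in palmitate and 302, 338 and 321 CPM in vehicle. The corresponding values with C3a were 268, 301 and 269.7 CPM in palmitate and 322, 326 and 323 CPM in vehicle. In CPM the groups were apart in both comparisons, by a narrow margin without C3a. In TPM, palmitate replicate 2 (196.6) was above vehicle replicate 1 (193.5). Pax6 fell by 0.19 without C3a (standard error 0.05, edgeR adjusted p = 0.0215) and by 0.21 with C3a (standard error 0.05, adjusted p = 0.0111). Without C3a the call was lost when palmitate replicate 1 (adjusted p = 0.116), palmitate replicate 3 (0.0775), vehicle replicate 2 (0.0853) or vehicle replicate 3 (0.0531) was left out. With C3a it was lost without vehicle with C3a replicate 1 (0.0678), and in batch 2 alone the adjusted p was 0.143 without C3a and 0.111 with C3a.

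Foxa2, which opens chromatin at Pdx1 and other endocrine genes, was called with C3a and on average, and not without C3a (ENSMUSG00000037025.11, chr2:148042877-148046969, minus strand). On average over both C3a states Foxa2 fell by 0.18 (standard error 0.04, edgeR adjusted p = 0.00738). It had 56.8, 92.1 and 99.1 CPM in palmitate and 63.7, 98.98 and 110.4 CPM in vehicle, a log2 fold change of -0.14 (95% interval -0.28 to -0.00, edgeR adjusted p = 0.125). With C3a it had 66.0, 97.6 and 93.5 CPM in palmitate and 75.8, 109 and 114 CPM in vehicle, a fall of 0.21 (standard error 0.06, adjusted p = 0.0265). The difference between these effects was not past the threshold (-0.07 on the log2 scale, 95% interval -0.26 to 0.12, adjusted p = 1). The call with C3a was lost without palmitate with C3a replicate 2 (adjusted p = 0.0696) or 3 (0.0927), without vehicle with C3a replicate 1 (0.126) or 3 (0.0699), and in batch 2 alone (0.084).

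Nkx2-2, a homeodomain repressor and activator that holds the beta cell fate against other islet fates, was the member closest to no change (ENSMUSG00000027434.11, chr2:147177546-147194243, minus strand). It had 92.1, 207 and 221 CPM in palmitate and 89.97, 218 and 231 CPM in vehicle. With C3a it had 115, 205 and 218 CPM in palmitate and 114, 235 and 233 CPM in vehicle. In CPM batch 1 was level in both pairs and batch 2 was slightly lower with palmitate. In TPM replicate 1 was higher with palmitate, at 90.3 against 73.96 without C3a and 116.3 against 98.5 with C3a. The log2 fold change was -0.04 without C3a (95% interval -0.21 to 0.13, edgeR adjusted p = 0.768) and -0.09 with C3a (-0.26 to 0.08, adjusted p = 0.445). The first of these was 0.01 without palmitate replicate 1 and 0.03 without vehicle replicate 3. Both intervals leave out a fall of the size seen for Pdx1. The Nkx2-2 stretch printed above (197 bases) and the Mnx1 stretch (250 bases) hold 1 TAAT core each. Any relation of such cores to the palmitate effect was not tested.

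**Figure D2:**
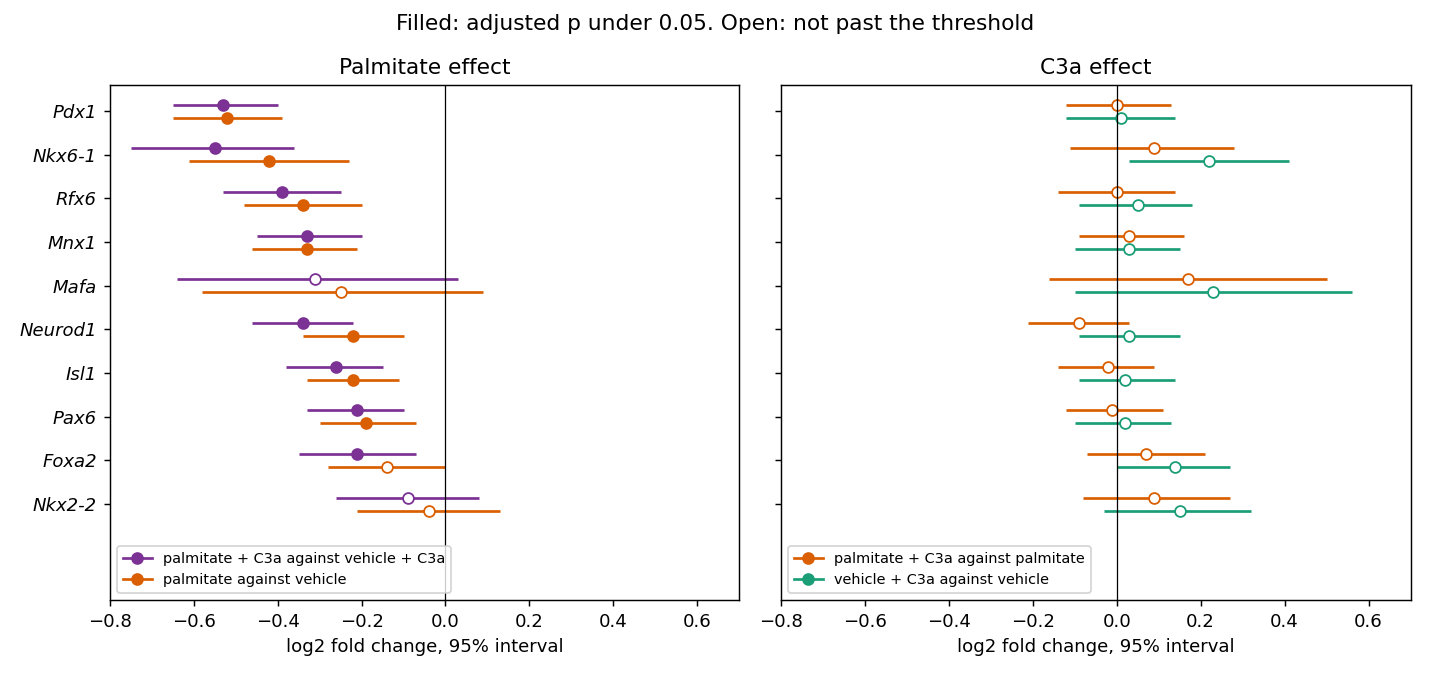
Log2 fold changes of the 10 factors (horizontal axes, points) with 95% intervals (lines), for palmitate at left and C3a at right; filled points passed an adjusted p of 0.05. Palmitate effects run from -0.55 to -0.04 and 15 of 20 points are filled, while C3a effects run from -0.09 to 0.23 and none is filled.

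Over the same-numbered pairs in CPM, 8 members were lower with palmitate in 3 of 3 pairs in each comparison and 0 were higher in 3 of 3. Of all genes tested, 30.0% were lower and 27.2% higher in 3 of 3 pairs without C3a, and 27.2% were lower and 28.4% higher with C3a. In CPM, all 6 libraries of a comparison were apart for 4 members without C3a (Neurod1, Pax6, Isl1 and Rfx6). With C3a they were apart for 5, where Pdx1 joined them, each with palmitate lower. Of all genes, 15.3% were apart and lower without C3a and 14.8% with C3a. Within batch 2, 7 members were apart without C3a and 9 with C3a, all lower with palmitate, against 30.3% and 27.6% of all genes. Fitting batch 2 alone called 5, 6 and 8 members lower without C3a, with C3a and on average, where 5.83%, 7.41% and 13.6% of 15552 genes were called lower. Batch 1 holds 1 library per group, so it gives differences and no test.

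C3a gave no call for any member. In palmitate islets the C3a log2 fold changes ran from -0.09 (Neurod1, 95% interval -0.21 to 0.03) to 0.17 (Mafa, -0.16 to 0.50), and each had an adjusted p of 1 in edgeR. That comparison called 0% of all genes, DESeq2 called 0 members, and 0 members had an unadjusted p under 0.05, against 430 of 15794 genes. In vehicle islets the effects ran from 0.01 (Pdx1) to 0.23 (Mafa, 95% interval -0.10 to 0.56), again with 0% of all genes and 0 members called by edgeR and 0 members by DESeq2. There 2 members had an unadjusted p under 0.05, Nkx6-1 at 0.22 (95% interval 0.03 to 0.41) and Foxa2 at 0.14, against 347 of all genes.

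Nkx6-1 had 176, 392 and 364 CPM in vehicle islets with C3a and 137, 346 and 339 CPM in vehicle islets without it. Each C3a library was the higher of its pair. The groups overlapped across batches and were apart within batch 2, as they were for Nkx2-2. Mafa, Nkx2-2, Isl1 and Foxa2 were likewise higher with C3a in 3 of 3 vehicle pairs, Isl1 by no more than 0.04 on the log2 scale. That makes 5 of 10 members, against 13.7% of all genes, in a comparison with no call. In palmitate islets Mafa was higher and Neurod1 lower with C3a in 3 of 3 pairs, and no other member kept a direction. Of all genes, 12.1% were higher and 13.8% lower in 3 of 3 of those pairs.

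Averaged over both palmitate states, C3a called 0 members and 0.00633% of all genes (1 gene). Unadjusted p-values under 0.05 came from Nkx6-1 (0.15 on the log2 scale) and Foxa2 (0.10), both with an adjusted p of 0.999. The interaction, which asks whether C3a altered the palmitate effect, called 0 members and 0% of all genes. Its estimates ran from -0.13 (Nkx6-1, 95% interval -0.41 to 0.14) to 0.01 (Mnx1, -0.17 to 0.18), and 0 members had an unadjusted p under 0.05 against 251 of all genes. For Pdx1 the interval was -0.19 to 0.17, so a C3a effect that cancelled its palmitate fall lay outside it.

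Levels of different genes can be compared only per length, so TPM values (counts over annotated length, scaled to a fixed total per library) were computed. In batch 2 (8 libraries) the median order was Mafa at 383 TPM, Nkx2-2 at 214, Pax6 at 206, Pdx1 at 199.8, Nkx6-1 at 149, Neurod1 at 101, Isl1 at 84.9, Foxa2 at 74.6, Rfx6 at 34.5 and Mnx1 at 24.3 TPM. The ranges of neighbours overlapped except below Mafa, below Nkx6-1 and below Foxa2. In batch 1 (4 libraries) the order began with Pax6 at 194 TPM and Pdx1 at 148, and Mafa was eighth at 46.5 TPM. Mnx1 was last there too, at 14.3 TPM. In the 4 vehicle libraries of batch 2, with and without C3a, Pdx1 stood second with a median of 243 TPM, and its range overlapped that of Nkx2-2.

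Several members differed more between the sequencing batches, which also set replicate 1 apart from replicates 2 and 3, than between treatments. In the fit, batch 2 exceeded batch 1 by 3.10 on the log2 scale for Mafa (8.57-fold, adjusted p = 1.34e-07 in edgeR), more than for 99.81% of genes tested. Nkx6-1 was 2.59-fold and Nkx2-2 2.16-fold higher in batch 2, and Mnx1, Foxa2 and Pdx1 were higher by 0.66, 0.64 and 0.43 on the log2 scale. Pax6, Isl1 and Neurod1 differed by 0.10, 0.03 and -0.02, and Rfx6 by -0.21.

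The order of these batch differences followed the G+C content of the most abundant transcript. It was 65.0% for Mafa, higher than in 99.4% of genes, 59.0% for Nkx6-1 and 43.6% to 47.0% for Neurod1, Rfx6, Isl1 and Pax6. Spearman's rho over the 10 members was 0.95, a description over genes that share the same libraries, and over 15786 genes it was 0.03. By G+C range, the median batch difference over all genes lay between -0.04 and 0.02 below 60%, at 0.17 from 60% to 65% and at 0.82 above it. The part of base composition in any member's level was not tested. The palmitate contrasts are within batch, since each batch holds every group.

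**Figure D3:**
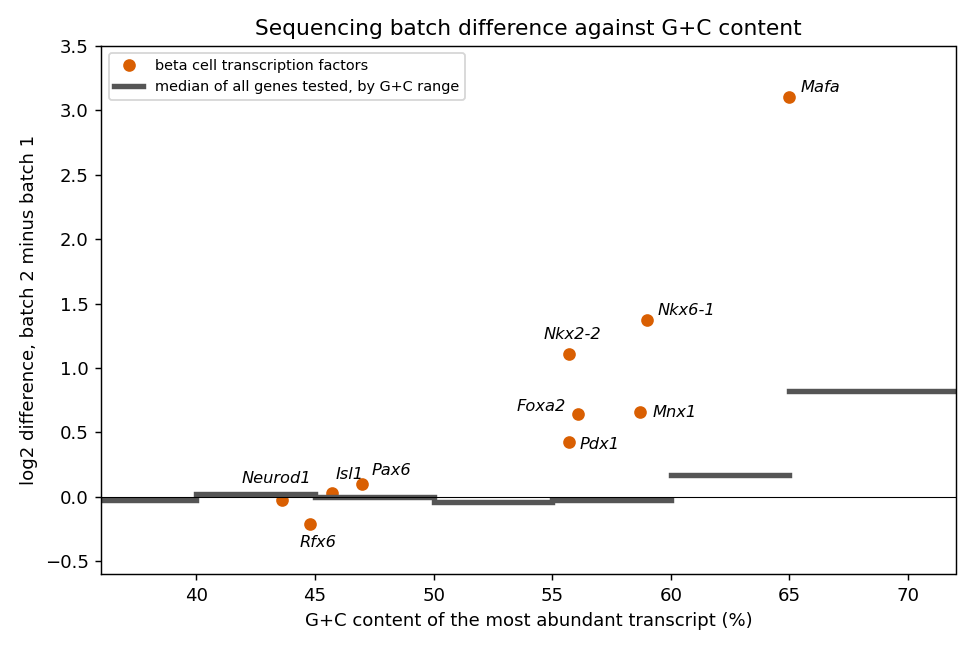
Batch 2 minus batch 1 log2 difference (vertical axis) against G+C content of the most abundant transcript (horizontal axis, %) for the 10 factors, with grey bars for the median of all tested genes in each G+C range. Mafa lies at 3.10 and 65.0%, and Neurod1, Isl1, Pax6 and Rfx6 lie near 0 at 47.0% or less.

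Transcript by transcript, 4 members (Pdx1, Mafa, Nkx6-1 and Neurod1) had a single transcript in the table. Isl1-201 held 86.4% of Isl1 counts and fell by 0.26 with palmitate on average (edgeR adjusted p = 0.00462, in a fit that called 4.96% of 41537 transcripts lower and 5.41% higher). Pax6 was split over 26 transcripts, 22 of them tested. Pax6-204, with 34.6% of its counts on average, fell by 0.31 (standard error 0.06, adjusted p = 0.00789 in edgeR), while Pax6-206, with 34.9%, gave -0.06 (standard error 0.09, adjusted p = 0.774). The difference between these transcripts was not tested.

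Mnx1 counts moved between its transcripts with the batch: Mnx1-201 held 26.0% to 49.4% of them in batch 2 and 0% to 10.2% in batch 1. With palmitate on average Mnx1-201 gave 0.20 (standard error 0.67, edgeR adjusted p = 0.922). The other transcript of the gene, Mnx1-202, fell by 0.44 (standard error 0.08, edgeR adjusted p = 0.00869). Foxa2-202, with 94.0% of the Foxa2 counts, gave -0.17 (adjusted p = 0.0725 in edgeR), and Nkx2-2-201, with 86.0% of the Nkx2-2 counts, gave -0.11 (adjusted p = 0.341 in edgeR). Rfx6-202 held 99.3% of the Rfx6 counts and fell by 0.39 (adjusted p = 0.00151 in edgeR).

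The members moved together over the 12 libraries once the batch means were removed. Among their 45 pairs, Pearson's r of log2 CPM had a median of 0.77 and ran from 0.20 (Nkx2-2 with Neurod1) to 0.97 (Isl1 with Rfx6), a description over libraries that share the palmitate contrast. With the group means removed as well, the median was 0.03. The gene most like Pdx1 among 10604 others was Taok2 (r = 0.994), followed by Adarb1 (0.992). Foxo1 was most like Pax6 (0.986), Plekha1 most like Isl1 (0.990), Aldh4a1 most like Nkx6-1 (0.984) and Gpsm1 most like Mafa (0.930). Nptx1 was most like Mnx1 (0.983), Zxdb most like Neurod1 (0.986) and Ppp2r5a most like Rfx6 (0.979). Zfp771 was most like Nkx2-2 (0.961) and Smyd4 most like Foxa2 (0.924).

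Of 30 other islet transcription factors, 27 could be tested (Foxa1, Lmx1a and Pax4 had 50, 10 and 1 counts in all). On average over both C3a states, palmitate lowered 12 and raised 5 of them, with a median of -0.18. Of all genes, 19.4% were called lower and 20.3% higher. Mlxipl, the glucose-responsive factor ChREBP, had 68.5, 86.3 and 82.0 CPM in palmitate and 173, 186 and 179 CPM in vehicle, and fell by 1.12 (standard error 0.06, edgeR adjusted p = 2.59e-07). Its groups were far apart. Myt1 and Glis3 fell by 0.45 and 0.39, and Foxo1, a mediator of insulin signalling, fell by 0.28. The activity-induced factors Npas4 and Nr4a1 rose by 2.07 and 1.47 on the log2 scale, Etv1 rose by 0.48, and the remaining risers, named after their values were seen, were Bach2 (0.64) and St18 (0.21). Npas4 stayed low, at 1.44 to 2.61 CPM in palmitate and 0.166 to 0.796 CPM in vehicle.

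Of 10 factors of alpha, delta and PP cells, 4 fell and 2 rose, with a median of 0.07 (all genes: 19.4% lower and 20.3% higher). Pou3f4, a POU-domain factor of alpha cells, fell by 0.73 (standard error 0.13, edgeR adjusted p = 0.000895), and Tead1 fell by 0.23. Irx1 rose by 0.26. Etv5 had 45.3, 52.3 and 48.4 CPM in palmitate and 17.7, 25.5 and 23.1 CPM in vehicle, without overlap, and rose by 1.09 (standard error 0.06, edgeR adjusted p = 1.74e-07). Glucagon itself gave 0.02 (standard error 0.04, edgeR adjusted p = 0.711).

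Among 36 partners and cofactors of the members, 16 fell and 3 rose, with a median of -0.12 (all genes: 19.4% lower and 20.3% higher). Ldb1, the adaptor that binds Isl1 in islets, had 66.95, 66.1 and 70.9 CPM in palmitate and 79.9, 84.4 and 86.9 CPM in vehicle, without overlap. It fell by 0.31 (standard error 0.04, edgeR adjusted p = 3.91e-05). The homeodomain partners Pbx3 and Pbx2 fell by 0.36 and 0.24, the E-box partners Tcf4 and Tcf3 by 0.22 and 0.18, and the corepressor Tle3 by 0.39. Smarca2, a chromatin remodelling ATPase, fell by 0.27, and Lmo4, a LIM-only protein, rose by 0.54. Tcf12 and Pknox1, named after their values were seen, rose by 0.14 and 0.13.

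Of 30 genes known as targets of the members, 18 fell and 2 rose, with a median of -0.22 (all genes: 19.4% lower and 20.3% higher). Slc2a2, the beta cell glucose transporter GLUT2, had 244, 331 and 309 CPM in palmitate and 561, 516 and 522 CPM in vehicle, a wide gap. It fell by 0.92 (standard error 0.08, edgeR adjusted p = 1.48e-05). The incretin receptors Glp1r and Gipr fell by 0.89 and 0.37, the granule zinc transporter Slc30a8 by 0.78 and Ucn3, a mark of mature beta cells, by 0.28. The risers G6pc2 (0.21) and Snap25 (0.10) and the hormone genes of this list are named after their values were seen. Ins1 gave -0.24 (edgeR adjusted p = 0.0513), Ins2 fell by 0.18 (0.0486), and Iapp gave 0.14 (0.0575). C3a called 0 genes of any of these lists, within palmitate, within vehicle or on average.

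**Figure D4:**
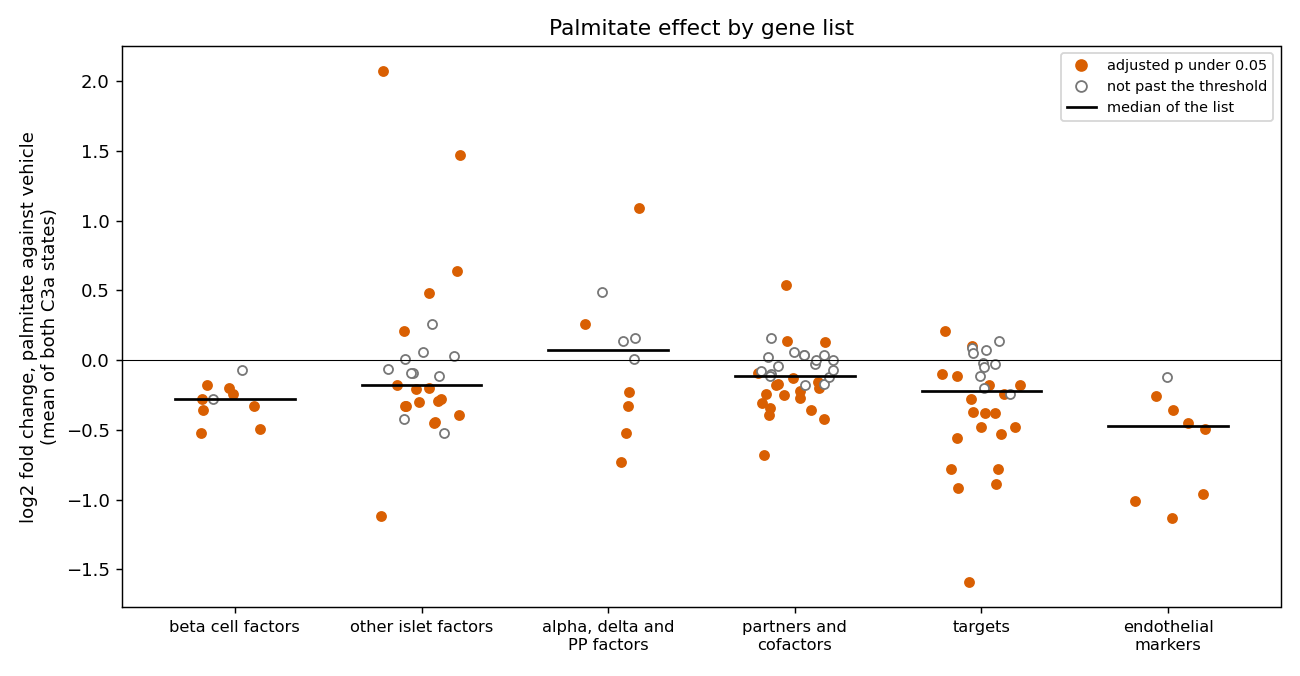
Log2 fold change of palmitate against vehicle, averaged over both C3a states (vertical axis), for each tested gene of 6 lists (horizontal position within a list is arbitrary); filled points passed an adjusted p of 0.05 and bars are list medians. The members' median is -0.28 and that of the endothelial markers is -0.47, and no member is above 0.

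Some markers of other cell types also moved with palmitate, in an average that called 39.7% of all genes (19.4% lower and 20.3% higher). Of 8 endothelial markers, 7 fell with palmitate on average, with a median of -0.47, among them Emcn (-1.13) and Kdr (-1.01). Their summed level was 125.3 to 226.8 CPM in palmitate with C3a, 114.7 to 215.4 in palmitate, 195.1 to 271.5 in vehicle with C3a and 212.9 to 297.0 in vehicle. No marker of any of these lists was at 0 in any library. Of 11 alpha cell markers, some of which are also in the list of alpha, delta and PP cell factors, 2 rose (Gc and Irx1) and 3 fell, Slc7a2 among them. Of 6 delta and PP markers, Pyy rose and Ghsr fell, and of 12 acinar and duct markers, Spp1 rose. Of 12 stromal and immune markers, Cd68 rose and C1qa, Pdgfrb and Rgs5 fell. The summed level of these 12 was uneven between libraries of a group. It was 305.4 to 1647 CPM in palmitate with C3a (highest in replicate 3) and 324.6 to 908.7 in palmitate (highest in replicate 1). In vehicle with C3a it was 551.5 to 631.3 CPM, and in vehicle 480.6 to 847.8 CPM. Summed alpha marker levels were 26200 to 36660 CPM in palmitate with C3a, 27140 to 38380 in palmitate, 25460 to 34890 in vehicle with C3a and 25940 to 40290 in vehicle. The part of these shifts in the members' falls was not tested.

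The calls rested on fitting the batch. With group alone in the model and no batch term, batch differences were left in the error. Then 2, 3 and 5 members were called lower without C3a, with C3a and on average, against 5.55%, 6.53% and 12.7% of all genes. Pax6 and Rfx6, whose batch differences were 0.10 and -0.21, also lost their calls without C3a. Why single calls were lost was not tested. Without that term Neurod1 and Isl1 were still called without C3a, joined by Rfx6 with C3a, while Pdx1 kept its size and missed the threshold (-0.51 in both comparisons, edgeR adjusted p = 0.106 without C3a and 0.101 with C3a). When the most abundant transcript stood for each gene, 3 members were called without C3a (Pdx1, Mnx1 and Rfx6) and 5 with C3a (Pdx1, Nkx6-1, Neurod1, Isl1 and Rfx6), against 1.62% and 2.60% of transcripts called lower.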

How the data were processed

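Messenger RNA of 12 cultured islet libraries was sequenced after a strand-marking preparation, per the labels' protocols. The authors deposited estimated counts per transcript in whole numbers and without normalization. The submitters' processing notes name kallisto, DESeq2 and genome build GRCm38. The transcriptome release and any use of strand are not stated there, so overlapping or antisense genes may share counts.

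Of 71524 transcripts, 69942 matched GENCODE M21 and were summed to 22141 genes and rounded; the 1582 others were not used. All libraries differed from one another beyond sampling noise (chi-squared over its degrees of freedom at least 7.72). edgeR 4.0.16 (R 4.3.3) filtered (filterByExpr, 15794 genes), scaled (TMM, factors 0.967 to 1.045) and fitted group and sequencing batch by robust quasi-likelihood over all 12 libraries (7 residual degrees of freedom, biological coefficient of variation 11.2%). Tests were two-sided, over 7 comparisons, each adjusted by Benjamini-Hochberg over all genes tested. Standard errors were derived from the fold change and its F statistic; intervals are 95%. CPM is TMM-scaled.

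The members and gene lists were chosen with earlier results of these data known. The naming rule took all members in every comparison and, from each other list, up to 8 genes by smallest p in the palmitate average and up to 4 in the C3a average; a few selected genes are not reported here. Genes most alike were ranked by Pearson's r of batch-centred log2 CPM (prior count 2, mean CPM of 5 or more). On data simulated for the palmitate comparison with 200 changed genes among 15623 fitted, 90% of those at -1, 64% at -0.5, 64% at 0.5 and 94% at 1 on the log2 scale were recovered. There were 10 false calls. The data themselves had 4005 genes called in that comparison, so the simulated setting differs. Changes smaller than 0.5, which most members had, were not simulated. The replicate numbers were taken to pair the libraries, since the labels put number 1 in batch 1 and give numbers 2 and 3 a date-like tag shared by all groups. Deviations of the libraries from group means had correlations no lower than 0.395 in 18 same-numbered pairs. Those deviations still hold the batch difference, so this figure cannot show pairing. Within batch 2 the correlations were no lower than 0.0799, with a mean of 0.115. There the values of number 3 only repeat those of number 2, because each group mean is of these 2 libraries. Alternatives were DESeq2 1.42.0 and its size factors, no filter, no batch term, a replicate block, batch 2 alone, the compared groups alone, the most abundant transcript and leaving out each library.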

Additional observations from a re-analysis of the deposited data

How the results depend on the processing

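Counts of called members without C3a, with C3a and on average were 7, 8 and 8. Without the batch term they were 2, 3 and 5, where the batch difference enters the error. Testing the most abundant transcript alone gave 3 without C3a and 5 with C3a, in a fit adjusted over 41537 transcripts. Leaving out each library in turn gave 5 to 7, 6 to 8 and 8 to 9. With the replicate block, which the pairing allows, they stayed at 7, 8 and 8, and it changed no count of calls in any other comparison. DESeq2 gave 7, 8 and 9. For the C3a comparisons and the interaction every alternative gave 0. Of the members' values under all alternatives, 1289 kept their sign and side of the threshold, 37 lost the call and 4 gained it. The remaining 40 values, none past the threshold, changed sign and were at most 0.19 in size. Of these, 38 were C3a effects or interactions, and the others were Nkx2-2 without C3a, at 0.01 without palmitate replicate 1 and 0.03 without vehicle replicate 3. All 37 lost calls were palmitate effects: 18 without C3a, 15 with C3a and 4 on average. The C3a effects and interactions had no call to lose, so their part of the 1289 says little about the palmitate calls. The members had 488 or more counts in each library, and the effect of depth was not tested.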
